A study of Mus musculus with 22 samples.

Results

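The ETn and MusD elements were followed here as 10 of the 1077 repeat families in a count table of mouse embryonic stem cell (ESC) RNA. They are the families whose names begin with ETnERV, MMETn, RLTRETN or ERVB7: the internal parts MMETn-int, ETnERV-int, ETnERV2-int and ETnERV3-int, and the long terminal repeats (LTRs) RLTRETN_Mm, ERVB7_1-LTR_MM, ERVB7_2-LTR_MM, ERVB7_2B-LTR_MM, ERVB7_3-LTR_MM and ERVB7_4-LTR_MM. The group was selected on its measured counts, which were higher after loss of Ythdc1 and lower in Mettl3 knockout (KO) cells. Differences of these families after loss of Ythdc1 and in Mettl3 KO cells are therefore described without a test.

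The study measured RNA after removal of ribosomal RNA in 22 libraries of male ESCs of a 129 background, kept without feeder cells in serum and LIF. The Ythdc1 set holds 8 libraries of Ythdc1 conditional knockout (cKO) cells from a pair of ESC lines, 4 treated with 4OHT, a ligand used to switch on inducible Cre, and 4 with DMSO. The Mettl3 set holds 2 wild-type (WT) and 2 KO libraries. The Dux set holds 10 libraries, all Ythdc1 cKO: 2 Dux-Het and 2 Dux-KO under each treatment, and 1 of each treatment whose title names no Dux genotype. DMSO libraries thus carry the same Ythdc1 allele as the 4OHT libraries, and no group received 4OHT without that allele. The count table does not say which ESC line a library of the Ythdc1 set came from, so these libraries were compared as 4 against 4. Nothing in the labels says that replicates were separate cultures, so p-values measure the spread between these libraries, which may be technical.

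ETn elements (early transposons) are LTR retrotransposons of the mouse that lack their own reverse transcriptase and are mobilised by the proteins of MusD, a related coding family. Both are known to be active in early embryonic cells, and new insertions are a recognised source of mouse mutations. In ESCs they are held down by KRAB zinc finger proteins such as ZFP932 and GM15446, which bring TRIM28 and the histone H3K9 methyltransferase SETDB1 to the elements. YTHDC1 is a nuclear reader of the RNA mark m6A, and METTL3 is the catalytic subunit of the m6A writer. DUX is the transcription factor that turns on MERVL elements and genes of the 2-cell embryo.

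Total counts per library ran from 24955414 to 54139132. Repeat families took 16.4% to 28.8% of them. The targeted genes were checked first. Ythdc1 stood at 70.8 to 80.2 CPM (counts scaled to a common library size of 1e6) in the 4 DMSO libraries of the Ythdc1 set and at 49.0 to 62.8 CPM in the 4 under 4OHT (log2 fold change -0.41, SE 0.0812, adjusted p = 0.00064 in edgeR). Treatments overlapped for Ythdc1 in the Dux set, at 58.9 and 86.5 CPM under DMSO and 52.2 and 65.9 CPM under 4OHT in Dux-Het cells and at 49.7 and 71.3 against 53.9 and 56.6 CPM in Dux-KO cells (mean effect -0.23, adjusted p = 0.266). Mettl3 stood at 29.0 and 29.9 CPM in the WT libraries and at 14.5 and 28.4 CPM in the libraries labelled Mettl3 KO. The second library labelled KO was thus close to WT for Mettl3 RNA at gene level, a measure that does not show whether the protein is made. Duxf3, the symbol under which Dux stands, had 1 and 5 counts in the Dux-KO libraries under 4OHT and 68 and 48 counts in the Dux-Het libraries. All 7 ESC markers examined were detected in every group, with summed levels from 950.03 to 1636 CPM. Their sums were lower under 4OHT in the Ythdc1 set (1275 to 1423 against 950.03 to 1145 CPM) and in Dux-KO cells (1348 to 1592 against 1014 to 1094 CPM). Of the 7, 3 fell in the Ythdc1 set and 3 in the Dux mean effect, beside 21.4% and 12% of all entries, among them Nanog (275 to 99.3 CPM on average in the Ythdc1 set). In the libraries labelled Mettl3 KO 3 of the 7 rose and 1 fell, beside 16.4% and 14.9% of all entries. Trophectoderm markers summed to 6.115 and 8.58 CPM in Mettl3 WT and to 13.2 and 14.1 CPM in KO. Their sums in the Ythdc1 set were 15.4 to 19.4 CPM under DMSO and 16.2 to 23.4 CPM under 4OHT, and in the Dux set 4.98 to 9.58 CPM. The part of these differences in the results below was not tested. Fibroblast or feeder markers summed to 9.04 to 66.5 CPM. Lum among them was at 0 in 5 of the 10 groups, while the others listed had counts in every group. In these bulk libraries fewer cells of a type and less RNA per cell cannot be told apart.

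The DMSO replicates of the Dux set stood apart from each other. MMETn-int was at 938 CPM in Dux-Het DMSO replicate 1 and at 2363 CPM in replicate 2. Major satellite repeats (GSAT_MM) were also unequal there, at 7.16 and 61.6 CPM, and the 4OHT libraries with a Dux genotype had GSAT_MM at 37.0 to 81.9 CPM. GSAT_MM in the Ythdc1 set was at 8.29 to 16.5 CPM under DMSO and 103 to 159 CPM under 4OHT. The part of this difference in the results below was not tested. The main results on the Dux-Het cells are also given without that library.

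MMETn-int and ETnERV-int made up most of the ETn and MusD counts in every library. MMETn-int took 46.5% to 61.2% of the counts of the 10 families and ETnERV-int 26.5% to 33.8%. ERVB7_1-LTR_MM followed with 5.81% to 10.8% and RLTRETN_Mm with 1.88% to 4.80%. Each of the remaining 6 families stayed under 2.84%. These are reads per family, not per length or per copy, so the order does not rank the activity of single elements. All 10 families passed the filter on low counts in each fit.

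Together the 10 families took 0.865% ± 0.0229 (SD, n = 4) of all counts in the Ythdc1 set under DMSO and 1.26% ± 0.0360 (SD, n = 4) under 4OHT. In the Mettl3 set the share was 0.433% and 0.438% in the WT libraries and 0.262% and 0.288% in the libraries labelled KO. In the Dux set it lay between 0.144% and 0.374% in the 5 DMSO libraries and between 0.412% and 0.509% in the 5 under 4OHT. The shares under 4OHT were thus above all DMSO shares in the Ythdc1 set and in the Dux set. Repeat families as a whole also took more of all counts under 4OHT in both sets. As a share of repeat counts, the 10 families overlapped in Dux-Het cells (0.962% and 1.79% under DMSO, 1.69% and 2.03% under 4OHT). That share did not overlap in Dux-KO cells or in the Ythdc1 set (3.69% to 3.93% under DMSO, 4.39% or more under 4OHT). The DMSO share of all counts differed several-fold between the Ythdc1 and Dux sets. Set, cell line and handling cannot be told apart in that difference between sets.

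**Figure D1:**
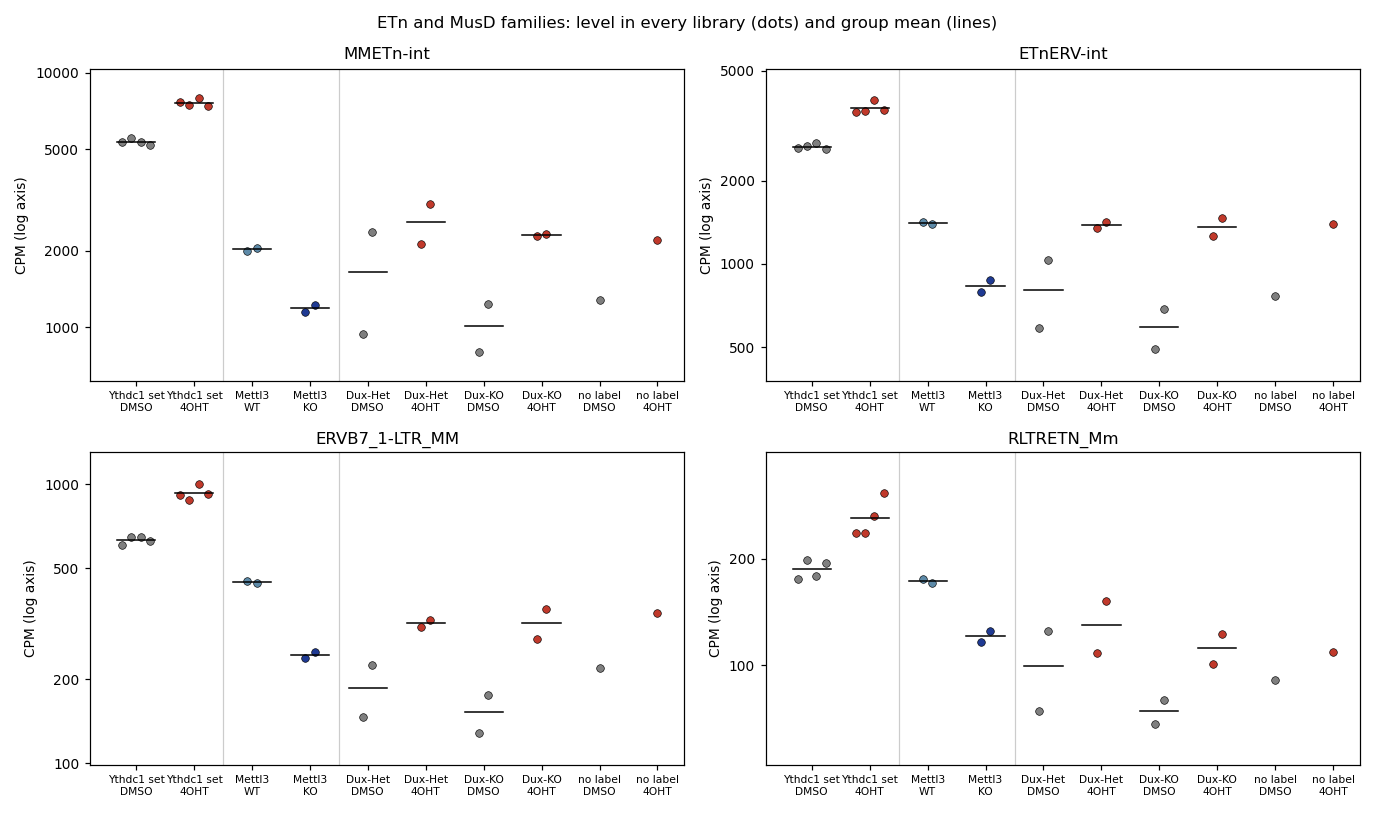
Level of the 4 most abundant ETn and MusD families in each of the 22 libraries, in CPM on a log axis. Dots are libraries coloured by treatment or genotype, and lines are group means where a group has more than 1 library. MMETn-int under 4OHT lay at 7419 to 8002 CPM in the Ythdc1 set, and 1 DMSO library of the Dux-Het cells reached 2363 CPM, inside the range of the Dux-Het libraries under 4OHT.

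In the Ythdc1 set the main internal families were higher under 4OHT. MMETn-int, the ETn internal sequence, was at 5332, 5541, 5361 and 5224 CPM in DMSO libraries 1 to 4 and at 7695, 7459, 8002 and 7419 CPM in 4OHT libraries 1 to 4, 1.45-fold higher (log2 fold change 0.53, SE 0.0416). ETnERV-int, the internal part named for the ETn-related endogenous retrovirus, was at 2624, 2663, 2747 and 2610 CPM under DMSO and at 3547, 3579, 3922 and 3621 CPM under 4OHT, 1.40-fold higher (log2 fold change 0.48, SE 0.0466). In both families the 4 libraries under 4OHT lay above the 4 under DMSO. ETnERV2-int and ETnERV3-int, present at far fewer reads, were 1.63-fold and 1.54-fold higher. ETnERV3-int ran from 22.8 to 30.8 CPM under DMSO and from 31.5 to 48.9 CPM under 4OHT, with replicate 1 the highest in both groups.

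The LTRs of the same set divided. ERVB7_1-LTR_MM was at 607, 646.5, 647 and 625 CPM under DMSO and at 912, 875, 998 and 925 CPM under 4OHT, 1.49-fold higher (log2 fold change 0.58, SE 0.0532). RLTRETN_Mm, the ETn LTR, ran from 175 to 199 CPM under DMSO and from 236 to 307 CPM under 4OHT, 1.42-fold higher. ERVB7_3-LTR_MM was 1.25-fold higher, at 11.2 to 14.8 CPM under DMSO and 15.0 to 17.2 CPM under 4OHT. The groups did not overlap in these 3 families.

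The other LTRs did not share that pattern. ERVB7_2B-LTR_MM had a log2 fold change of 0.15 (SE 0.0959), ERVB7_4-LTR_MM of 0.05 (SE 0.150) and ERVB7_2-LTR_MM of -0.18 (SE 0.107), and in all 3 the groups overlapped. Of the 10 families 7 were past an adjusted p of 0.05 in the higher direction and 0 in the lower. In the same fit 61.7% of repeat families and 23.7% of all entries were past it in the higher direction, and 0.775% and 21.4% in the lower. Since this contrast chose the families, nothing is read from their count. Their median log2 fold change was 0.49, against 0.28 over the 1032 repeat families tested and 0.02 over all 24385 entries. Of those repeat families 958 had a positive log2 fold change. The share of entries whose groups did not overlap was not counted, in this set or the others.

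Other retroelements in the same libraries give a scale. IAPEz-int, the internal part of intracisternal A particles, was higher by 0.36 on the log2 scale (adjusted p = 0.00019), MMERVK10C-int by 1.18 (adjusted p = 3.0e-10) and MERVL-int by 1.65 (adjusted p = 7.0e-08). Of the 30 families named IAP or MMERVK, 24 rose and 0 fell. MMETn-int thus lay between IAPEz-int and MMERVK10C-int in the size of its change. The number of MMETn-int counts per IAPEz-int count was 4.11 ± 0.335 (SD, n = 4) under DMSO and 4.64 ± 0.343 (SD, n = 4) under 4OHT, with overlapping libraries.

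In the Mettl3 set the 4 abundant families were lower in the libraries labelled KO. MMETn-int was at 1994 and 2049 CPM in WT and at 1148 and 1227 CPM in KO, 1.68-fold lower (log2 fold change -0.75, SE 0.0634). ETnERV-int was at 1413 and 1394 CPM in WT and at 788 and 872 CPM in KO, 1.67-fold lower (log2 fold change -0.74, SE 0.0698). ERVB7_1-LTR_MM was at 450.5 and 441 CPM against 239 and 250.5 CPM, 1.80-fold lower (log2 fold change -0.85, SE 0.0715). The KO libraries lay below the WT libraries in all of these families, and the library with near-WT Mettl3 RNA was the higher of the KO pair in each.

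RLTRETN_Mm differed less, from 176 and 171 CPM in WT to 117 and 125 CPM in KO (log2 fold change -0.50, SE 0.0812). The 6 less abundant families did not follow: their log2 fold changes were 0.32 for ETnERV3-int, 0.16 for ERVB7_3-LTR_MM, 0.07 for ERVB7_2B-LTR_MM, 0.02 for ETnERV2-int, -0.02 for ERVB7_4-LTR_MM and -0.18 for ERVB7_2-LTR_MM. ETnERV3-int was higher in both KO libraries (33.5 and 37.0 CPM) than in both WT libraries (26.8 and 30.3 CPM). Of the 10 families 4 were past an adjusted p of 0.05 in the lower direction and 0 in the higher. In the same fit 2.04% of repeat families and 14.9% of all entries were past it in the lower direction and 10.7% and 16.4% in the higher, and nothing is read from this, since the contrast chose the families. The median over the 10 was -0.10, against 0.05 over the 1028 repeat families tested. Without WT replicate 1 the count of 4 was 0 and without WT replicate 2 it was 3, while MMETn-int had log2 fold changes of -0.79 and -0.74.

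The 3 retroelements taken for comparison went the opposite way in those libraries. IAPEz-int rose by 0.54 on the log2 scale (adjusted p = 0.00031), MMERVK10C-int by 0.84 (adjusted p = 0.00025) and MERVL-int by 1.03 (adjusted p = 2.6e-05). The calls of IAPEz-int and MMERVK10C-int were lost without WT replicate 1 (0.51 and 0.78). Of the 30 IAP and MMERVK families 18 rose and 1 fell. The number of MMETn-int counts per IAPEz-int count was 2.98 and 2.99 in the WT libraries and 1.19 and 1.24 in the libraries labelled KO. This ratio within a library does not depend on the scaling between libraries.

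**Figure D2:**
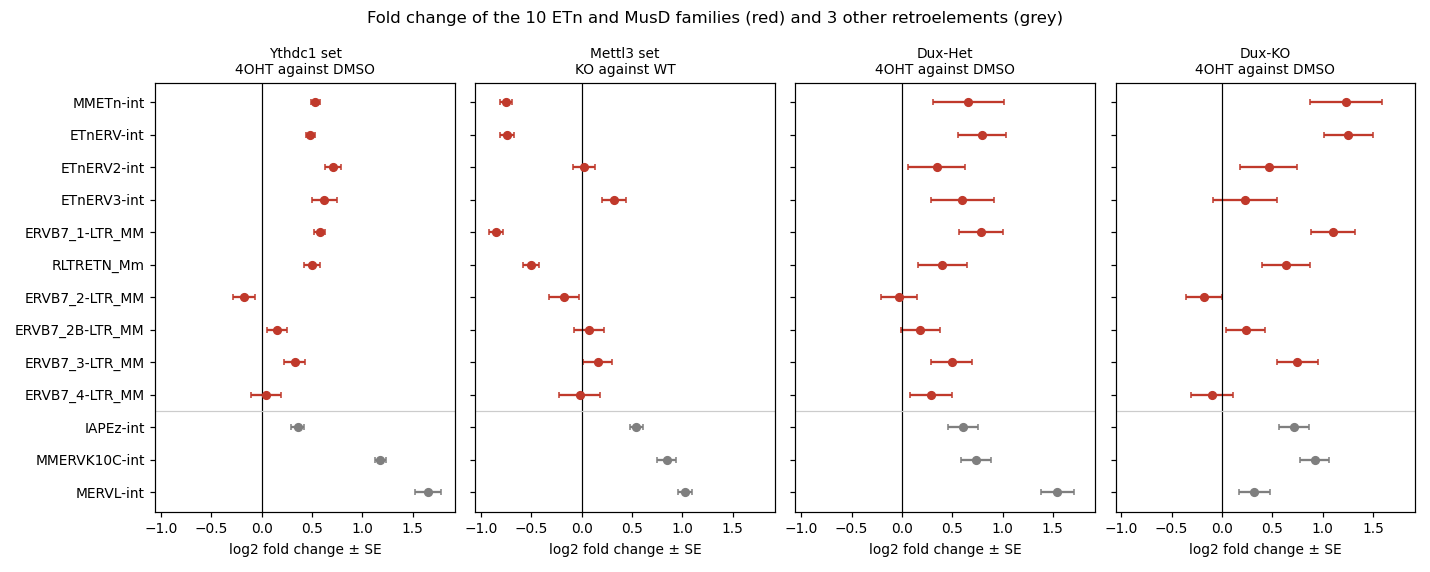
Log2 fold change with its SE for the 10 ETn and MusD families (red) and 3 other retroelements (grey) in 4 comparisons. MMETn-int, ETnERV-int, ERVB7_1-LTR_MM and RLTRETN_Mm lie to the right of 0 in each comparison of 4OHT with DMSO and to the left in Mettl3 KO against WT, where the grey families lie to the right. In Dux-KO cells MERVL-int is at 0.32 and MMETn-int at 1.23.

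The Dux set asks whether the same families respond to 4OHT in Dux-Het and Dux-KO cells, beside a pair whose titles name no Dux genotype. Its comparisons of 4OHT with DMSO also aim at a loss of Ythdc1, for which the families were chosen over all 22 libraries. They too are therefore described without a test. Ythdc1 RNA overlapped between treatments in this set, and RNA at gene level does not show whether the protein is made. Only differences by Dux genotype, which the choice did not use, are tested.

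In Dux-Het cells ERVB7_1-LTR_MM was at 147 and 226 CPM under DMSO and at 309 and 327 CPM under 4OHT (log2 fold change 0.79, SE 0.219). ETnERV-int was at 585 and 1029 CPM under DMSO and at 1353 and 1416 CPM under 4OHT (log2 fold change 0.80, SE 0.241). MMETn-int was at 938 and 2363 CPM under DMSO and at 2118 and 3050 CPM under 4OHT (log2 fold change 0.66, SE 0.350). In ERVB7_1-LTR_MM and ETnERV-int the groups did not overlap, while for MMETn-int DMSO replicate 2 lay above 4OHT replicate 1. Of the 1047 repeat families tested, 973 had a positive log2 fold change in this comparison.

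The size of these differences rests on the unequal DMSO pair. Without DMSO replicate 2 the Dux-Het values were 1.49 for MMETn-int and 1.27 for ETnERV-int, and without DMSO replicate 1 they were 0.14 and 0.44. Of the 10 families 1 was past an adjusted p of 0.05 in the higher direction and 0 in the lower, and the first count was 3 without DMSO replicate 2. It was 0 without DMSO replicate 1 or 4OHT replicate 2 of the Dux-Het cells, without Dux-KO DMSO replicate 1, without either Dux-KO library under 4OHT, and in a fit of the 4 Dux-Het libraries alone. In the same fit 1.91% of repeat families and 4.99% of all entries were past it in the higher direction and 0% and 4.34% in the lower, from which nothing is read.

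In Dux-KO cells ETnERV-int was at 490 and 688 CPM under DMSO and at 1265 and 1460 CPM under 4OHT, 2.38-fold higher (log2 fold change 1.25, SE 0.243). MMETn-int was at 799 and 1228 CPM under DMSO and at 2287 and 2334 CPM under 4OHT, 2.35-fold higher (log2 fold change 1.23, SE 0.353). ERVB7_1-LTR_MM was at 129 and 176 CPM against 278 and 358 CPM, 2.15-fold higher (log2 fold change 1.10, SE 0.221). Both 4OHT libraries lay above both DMSO libraries in these 3 families. They lay below both in ERVB7_2-LTR_MM (10.6 and 11.5 CPM under DMSO, 9.24 and 9.76 CPM under 4OHT). The same held for ERVB7_4-LTR_MM (5.18 and 5.35 CPM under DMSO, 4.47 and 5.07 CPM under 4OHT). Of the 1047 repeat families tested, 995 had a positive log2 fold change in this comparison.

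The LTR ERVB7_3-LTR_MM followed at a much lower level in Dux-KO cells, at 5.70 and 7.73 CPM against 10.6 and 11.4 CPM (log2 fold change 0.75, SE 0.206). Of the 10 families 3 were past an adjusted p of 0.05 in the higher direction and 0 in the lower. The first count was 0 without Dux-KO DMSO replicate 1 or either Dux-KO library under 4OHT and 5 without either Dux-Het library under DMSO. In the same fit 5.83% of repeat families and 5.5% of all entries were past it in the higher direction and 0% and 4.36% in the lower, from which nothing is read.

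Markers of 2-cell-like cells rose under 4OHT in the Ythdc1 set (7 of the 7 tested, with sums of 7.11 to 26.9 CPM under DMSO and 81.1 to 168 CPM under 4OHT) and in the Dux-Het cells, where 7 of the 8 listed rose and their summed level went from 6.82 to 7.37 CPM under DMSO to 49.0 to 58.7 CPM under 4OHT. In Dux-KO cells under 4OHT the same 8 markers summed to 0.0596 to 0.0902 CPM, and 6 of them, among these Zscan4c, Zscan4d and Zscan4f, had no count in either library. MMETn-int and ETnERV-int were at 2287 to 2334 and 1265 to 1460 CPM in those libraries. In the Mettl3 set the 2-cell-like markers summed to 0.902 to 1.51 CPM in WT and to 92.3 to 99.5 CPM in the libraries labelled KO, in which MMETn-int was lower. The part of 2-cell-like cells in the levels of these families was not tested. Of 6 primitive endoderm markers 4 rose in the Ythdc1 set and 4 in the Dux mean effect, beside 23.7% and 15.1% of all entries. Their sums were 27.6 to 39.2 CPM under DMSO and 34.6 to 46.0 CPM under 4OHT in the Ythdc1 set, and 14.6 to 18.9 and 22.7 to 29.3 CPM in the Dux set, and their part in the result was not tested.

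Averaged over the 4OHT effects of Dux-Het, Dux-KO and unlabelled cells, ETnERV-int was higher by 0.98 (SE 0.162), MMETn-int by 0.90 (SE 0.235), ERVB7_1-LTR_MM by 0.85 (SE 0.147) and ERVB7_3-LTR_MM by 0.55 (SE 0.137), all on the log2 scale. RLTRETN_Mm had 0.44 (SE 0.161), ETnERV3-int 0.37, ETnERV2-int 0.33, ERVB7_4-LTR_MM 0.16, ERVB7_2B-LTR_MM 0.12 and ERVB7_2-LTR_MM -0.16. The LTR ERVB7_2-LTR_MM thus had a negative value here and in the Ythdc1 and Mettl3 sets. Of the 10 families 4 were past an adjusted p of 0.05 in the higher direction and 0 in the lower. In the same fit 40.6% and 0.478% of repeat families and 15.1% and 12% of all entries were, from which nothing is read. The median over the 10 families was 0.40, against 0.35 over the 1047 repeat families tested.

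The pair without a Dux genotype in its title has 1 library per treatment and no test of its own. MMETn-int was at 1276 CPM under DMSO (95% exact Poisson interval 1265 to 1287) and at 2209 CPM under 4OHT (2195 to 2223). ETnERV-int was at 763 and 1394 CPM. ERVB7_1-LTR_MM was at 219 and 345 CPM, while ERVB7_2-LTR_MM was at 12.9 and 10.6 CPM with intervals of 11.8 to 14.1 and 9.65 to 11.6 CPM. The intervals cover counting error only.

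No difference of these families by Dux genotype passed the threshold in the main fit. In edgeR 0 of the 10 differed between Dux-KO and Dux-Het cells under 4OHT, where 0.276% of all entries and 0.191% of repeat families did, and 0 differed under DMSO, where 0.0341% of all entries did. The 4OHT effect in Dux-KO minus that in Dux-Het was past the threshold for 0 of the 10 and for 0% of all entries. In each of these 3 comparisons 0 of the 10 had an unadjusted p under 0.05 in the main fit. In edgeR with no filter on low counts 1 had it under 4OHT, 4 under DMSO and 2 for the difference of effects. With a term for the replicate number these counts were 1, 3 and 0. DESeq2 called 0 in each comparison, with 1 unadjusted p under 0.05 under 4OHT. For MMETn-int the difference of effects was 0.57 (SE 0.493, 95% interval -0.51 to 1.65) and for ETnERV-int 0.46 (interval -0.29 to 1.20), so effects of equal size and effects differing more than 2-fold both lay within the interval. These values turned with the unequal DMSO pair: without Dux-Het DMSO replicate 2 they were -0.26 and -0.016, and without replicate 1 they were 1.09 and 0.81. Under DMSO the difference of MMETn-int between Dux-KO and Dux-Het was -0.73 (interval -1.50 to 0.04), and without those replicates in turn 0.094 and -1.25, with no adjusted p past the threshold.

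MERVL-int, the element that DUX activates, is the contrast. It was at 1052 and 864 CPM in Dux-Het cells under 4OHT and at 331 and 326 CPM in Dux-KO cells under 4OHT (log2 difference -1.55, SE 0.161, adjusted p = 0.0012). For MMETn-int the same difference was -0.16 (interval -0.93 to 0.60) and for ERVB7_1-LTR_MM it was below 0.01 in size (interval -0.48 to 0.48). The change of the 4OHT effect of MERVL-int with genotype was -1.22 (unadjusted p = 0.00018), which did not pass adjustment over all entries.

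Ordered by mean level, MMETn-int ran from the Ythdc1 set under 4OHT (7644 ± 268 CPM, SD, n = 4) and DMSO (5364 ± 132 CPM, SD, n = 4) to Dux-Het 4OHT (2584 CPM), Dux-KO 4OHT (2310 CPM), unlabelled 4OHT (2209 CPM), Mettl3 WT (2021 CPM), Dux-Het DMSO (1651 CPM), unlabelled DMSO (1276 CPM), Mettl3 KO (1187 CPM) and Dux-KO DMSO (1014 CPM). The groups of the Ythdc1 set were clear of each other and of all the rest. Dux-Het and Dux-KO under 4OHT overlapped, Mettl3 KO lay within the range of Dux-KO DMSO, and the 2 Dux-Het DMSO libraries enclosed every group from Mettl3 KO up to Dux-KO 4OHT.

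Ratios between families within a library showed that the families did not move as one. MMETn-int counts per ETnERV-int count were 2.02 ± 0.0541 and 2.09 ± 0.0590 (SD, n = 4 each) in the Ythdc1 set under DMSO and 4OHT, and 1.44 and 1.43 on average in Mettl3 WT and KO. The main pair of families thus kept its proportion across treatment in the Ythdc1 set and across genotype in the Mettl3 set, and it differed between those sets. Libraries of the Dux set ran from 1.57 to 2.30, a range that holds every library of the Ythdc1 set. In Dux-Het replicate 2 the ratio was 2.30 under DMSO and 2.15 under 4OHT, and in replicate 1 it was 1.60 and 1.57.

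ETnERV2-int shifted against ETnERV-int, the family it is named after. In the Mettl3 set it went from 4.87 and 4.82 per 100 ETnERV-int counts in WT to 7.82 and 8.57 in the libraries labelled KO. In the Dux set it was at 6.37 to 7.71 in the 5 DMSO libraries and at 3.94 to 6.20 in the 5 under 4OHT, with no overlap. In the Ythdc1 set it was higher under 4OHT, again with no overlap, at 1.64 to 1.84 under DMSO and 1.85 to 2.42 under 4OHT.

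RLTRETN_Mm, taken per 100 counts of MMETn-int and ETnERV-int together, went from 5.16 and 4.96 in Mettl3 WT to 6.02 and 5.97 in the libraries labelled KO. It was at 3.68 to 5.28 in the 5 DMSO libraries of the Dux set and at 2.84 to 3.40 in the 5 under 4OHT. In both of these sets the LTR was thus lower relative to the internal parts in the group with more internal counts. In the Ythdc1 set no such shift was seen, with 2.33 ± 0.143 under DMSO and 2.31 ± 0.318 under 4OHT (SD, n = 4 each).

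**Figure D3:**
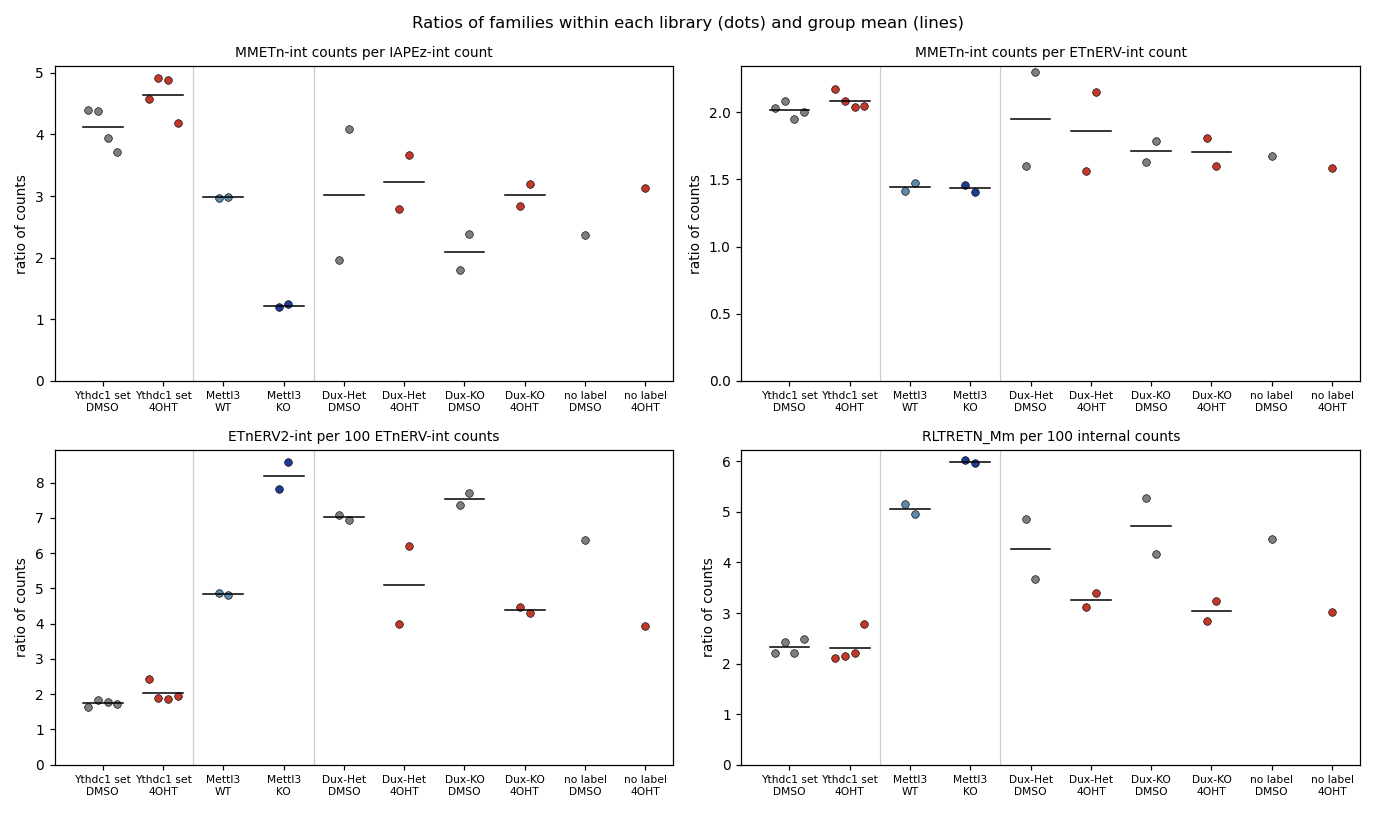
Ratios of counts between families within each library, with the axis from 0. Dots are libraries and lines are group means. MMETn-int per IAPEz-int falls from 2.98 to 1.22 between Mettl3 WT and KO, while MMETn-int per ETnERV-int stays near 1.44, and ETnERV2-int per 100 ETnERV-int is at 6.37 or more in each Dux-set library under DMSO.

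Among 12680 entries with a mean of at least 5 CPM that are not ETn or MusD families, the 6 whose log2 CPM was most like that of MMETn-int over the 22 libraries included ERVB4_1C-LTR_Mm (Pearson r 0.98), Eid1 (0.96), Rab10os (0.96), Tead1 (0.96) and Gm47234 (0.95). The libraries fall into 3 sets with different levels, and r over all of them also reflects those levels, so it is given within sets too, as a description. For ERVB4_1C-LTR_Mm, an LTR of another endogenous retrovirus family, r was 0.99 over the 8 libraries of the Ythdc1 set and 0.96 over the 10 of the Dux set. For Tead1 (0.52 and 0.94), Eid1 (0.50 and 0.99) and Gm47234 (0.20 and 0.82) likeness was weaker in the Ythdc1 set, and for Rab10os r was 0.94 and 0.85. Among the ETn and MusD families themselves ETnERV-int had 0.99 and 0.96, and ERVB7_2-LTR_MM had -0.81 and -0.60.

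ERVB4_1C-LTR_Mm was at 665 to 691 CPM in the Ythdc1 set under DMSO and at 971 to 1098 CPM under 4OHT. It was at 350 and 339 CPM in Mettl3 WT and at 214 and 197 CPM in the libraries labelled KO. In the Dux set its DMSO libraries lay at 95.5 to 276 CPM and its 4OHT libraries at 354 to 430 CPM. In the Ythdc1 and Dux sets its libraries under 4OHT lay above those under DMSO, and Mettl3 WT lay above KO. It was picked for its likeness to MMETn-int over these same libraries, so nothing is read from this.

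Rab10os was at 34.2 to 37.7 CPM under DMSO and at 42.5 to 47.1 CPM under 4OHT in the Ythdc1 set. It was at 28.9 and 27.2 CPM in Mettl3 WT and at 23.5 and 19.8 CPM in the libraries labelled KO. These groups did not overlap, and their range was narrower than that of MMETn-int. Rab10os was picked in the same way, so nothing is read from its direction or the lack of overlap.

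**Figure D4:**
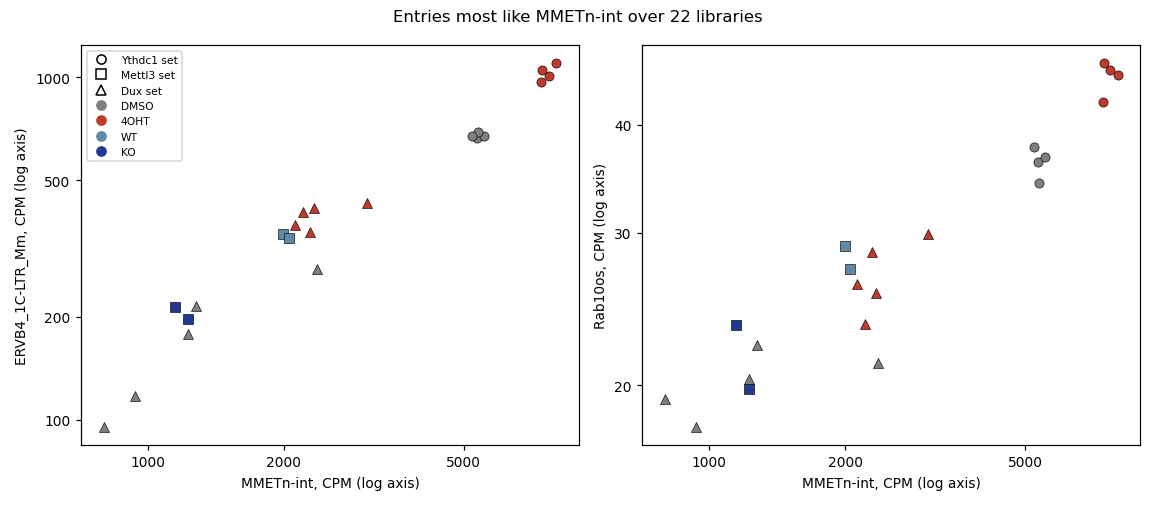
CPM of ERVB4_1C-LTR_Mm (left) and Rab10os (right) against that of MMETn-int in the 22 libraries, on log axes. Shapes mark the set and colours the treatment or genotype. Points of the 3 sets lie along one band, and within a set the libraries under 4OHT lie to the upper right of most DMSO libraries.

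Genes known to silence retroelements in ESCs were taken as a list of 35, all of which were tested. In the Ythdc1 set 18 fell and 6 rose under 4OHT, against 21.4% and 23.7% of all entries. In the Dux set the mean effect was lower for 14 and higher for 2, against 12% and 15.1% of all entries. In libraries labelled Mettl3 KO 16 fell and 4 rose, against 14.9% and 16.4%. Their median log2 fold change was -0.15 in the Ythdc1 set, -0.27 in the Dux set and -0.20 in the Mettl3 set, against 0.02, 0.06 and 0.02 over all entries. In the Dux set the count of 16 became 9 without either of the Dux-KO libraries under 4OHT. In the Mettl3 set several calls rest on the WT pair: those of Trim28, Dnmt1, Dnmt3l and Uhrf1 were lost without either WT library, and those of Setdb1 and Cbx3 without WT replicate 1, with values of unchanged sign.

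The KRAB zinc finger genes of the ETn pathway were not past the threshold. Zfp932 (chromosome 5, 109996521 to 110010411) was at 5.998 to 8.31 CPM under DMSO and 5.10 to 8.89 CPM under 4OHT in the Ythdc1 set (log2 fold change -0.07, SE 0.169), and at 6.99 and 8.45 CPM against 9.68 and 10.1 CPM in Mettl3 WT and KO (0.37, SE 0.167, adjusted p = 0.129). Gm15446, also on chromosome 5 (109923400 to 109943936), was at 7.23 to 8.52 and 6.42 to 8.77 CPM in the Ythdc1 set (-0.06, SE 0.130). KRAB zinc finger genes include closely similar copies, so reads could be split between them and these values are uncertain.

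The shared corepressor and methyltransferases differed in behaviour. Trim28 fell in the Ythdc1 set (log2 fold change -0.34, SE 0.0627, adjusted p = 0.00035), in the Dux set (-0.65, adjusted p = 0.0022) and in the libraries labelled Mettl3 KO (-0.42, adjusted p = 0.0042). Setdb1 had -0.00086 (SE 0.0567) in the Ythdc1 set, a sign that turns with the scaling, and -0.06 (adjusted p = 0.658) in the Dux set, and rose by 0.66 in the libraries labelled Mettl3 KO (adjusted p = 0.00042). Dnmt1, the maintenance DNA methyltransferase, fell in all 3 sets (-0.47, -0.45 and -0.32, adjusted p = 3.7e-06, 0.0055 and 0.0105).

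The 5 silencing genes with the greatest change in the Ythdc1 set were Dnmt3l, Chaf1b, Uhrf1, Cbx3 and Pphln1. Dnmt3l, a cofactor of the de novo DNA methyltransferases, rose from 61.1 ± 16.5 to 157 ± 19.7 CPM (SD, n = 4 each, log2 fold change 1.39, adjusted p = 5.0e-07) and fell in the libraries labelled Mettl3 KO (-1.01, adjusted p = 0.0059). Chaf1b, a subunit of the chromatin assembly factor that loads histones behind replication, fell by 0.89 in the Ythdc1 set and by 0.88 in the Dux set (adjusted p = 6.9e-07 and 0.00027). Uhrf1, which guides DNMT1 to replicated DNA, fell by 0.75 and 0.86 there, and Cbx3, a heterochromatin protein that binds methylated H3K9, by 0.74 and 0.60. Pphln1, a subunit of the HUSH complex, fell by 0.68 and 0.44, the latter call being lost without Dux-Het DMSO replicate 1, Dux-KO DMSO replicate 2 or either Dux-KO library under 4OHT.

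**Figure D5:**
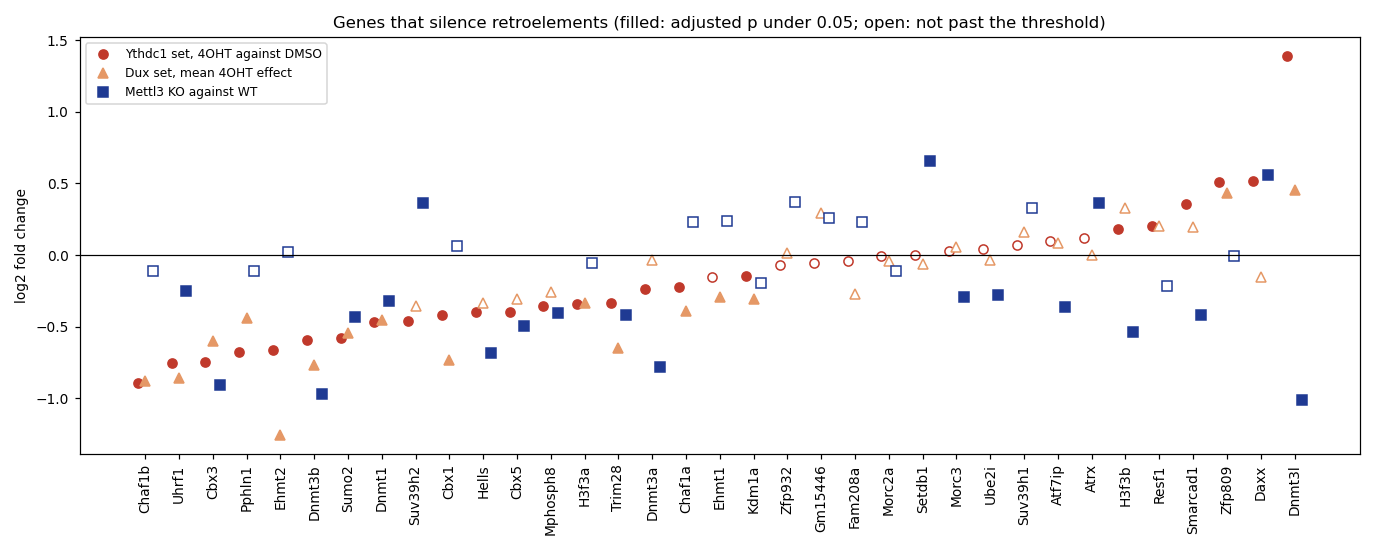
Log2 fold change of the 35 silencing genes in the Ythdc1 set (circles), the Dux set (triangles) and the Mettl3 set (squares), ordered by the Ythdc1 set. Filled symbols passed an adjusted p of 0.05. Dnmt3l is at 1.39 in the Ythdc1 set and -1.01 in the Mettl3 set, and Setdb1 is near 0 in the first and at 0.66 in the last.

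Of 15 m6A genes 7 fell and 0 rose in the Ythdc1 set, while 8 rose and 0 fell in the libraries labelled Mettl3 KO, beside 21.4% and 23.7% and then 16.4% and 14.9% of all entries. The 5 with the greatest change in the Ythdc1 set were Ythdc1 itself, Mettl14, the METTL3 partner (-0.40, adjusted p = 0.0005), Rbm15b, a writer adaptor (-0.36, adjusted p = 0.00028), the cytoplasmic reader Ythdf2 (-0.33, adjusted p = 0.001) and the eraser Alkbh5 (-0.26, adjusted p = 0.011). In the libraries labelled Mettl3 KO, Ythdf2 rose by 1.24 (adjusted p = 2.4e-05) and Ythdc1 by 0.82 (adjusted p = 0.00024), the latter call being lost without WT replicate 1. Ythdc1 was at 135.6 and 154 CPM there and at 81.7 and 83.6 CPM in WT, while MMETn-int was lower in these KO libraries. Any link between these levels was not tested. Mettl3 itself did not pass the threshold in the Ythdc1 set (0.15, adjusted p = 0.132).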

How the data were processed

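The authors deposited raw counts for 44749 entries (43672 genes, 1077 repeat families) in 22 libraries. Their deposited normalized signal equals the counts over a constant for each library, and those constants served only as an alternative scaling. Among tools, the submitters' processing notes list RSEM, STAR 2.7, Bowtie2 and bcl2fastq, with the build mm10. The sources used here do not give which tool counted repeats, whether strand was used, or how multiply mapping reads, which set repeat counts, were shared out. The 129 genome can differ from mm10 in its ETn and MusD copies. In the Dux set genotype fields and titles disagree by an offset of 1 sample, and groups follow the titles, which match the columns.

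The test was edgeR's quasi-likelihood test (version 4.0.16, R 4.3.3) after filterByExpr and TMM, with Benjamini-Hochberg adjustment over all entries and a threshold of 0.05, and all adjusted p-values for genes and families come from it. DESeq2 1.42.0 was an alternative, with other scalings, no filter, a replicate block and leaving out each library. Levels are CPM with 1 TMM scaling over all libraries. Intervals on fold changes are 95%. The script was tested on simulated counts. In the Ythdc1 set libraries of the same number deviated together (correlation 0.33, 0.13, 0.36 and 0.34 over 10172 entries). The numbers thus pair them by the data, least clearly for replicate 2. The main fit did not use this pairing. With the replicate block, calls over all entries in that set went from 5783 higher and 5225 lower to 6206 and 5698. Chi-square per degree of freedom between replicates was 3.74 to 99.1, above counting error, and no library was a copy of another. Named are all 10 families, 7 set genes (Zfp932, Gm15446, Trim28, Setdb1, Dnmt1, Ythdc1, Mettl3), the 5 genes of each list with the largest change in the Ythdc1 set, the 6 entries most like MMETn-int (log2 of CPM plus 0.5; 1 of them is not reported here) and 3 retroelements for comparison. GSAT_MM was named after its values were seen. Members and lists were chosen with earlier results of these data known. Gene positions are from GENCODE on GRCm38. The design listed tests of the families in the Dux set's 4OHT comparisons; these are given as descriptions, since loss of Ythdc1 chose the families.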

Additional observations from a re-analysis of the deposited data

Results flagged for a closer look

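In 20 groups of 4 libraries (10 families in each of the 2 groups of the Ythdc1 set), 1 library lay farther from its group than Dixon's critical value for 4 libraries allows, and chance gives about 1 in 20. ERVB7_2-LTR_MM was at 8.26 CPM in DMSO replicate 1 of the Ythdc1 set and at 9.18 to 9.35 CPM in the other 3 DMSO libraries, a gap of 0.842 of the range.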

How the results depend on the processing

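Over 121 results and 1811 alternative values, 1648 were taken as unchanged. A single family or gene kept its direction and side of the threshold or, where no test was made, moved by less than the spread between replicates. A count of families or genes was also taken as unchanged after a small move, such as 4 to 6 for the mean effect with the replicate block. The 6 entries most like MMETn-int, the same with 0.1 or 2 added to CPM, are included. Values of MMETn-int in the Ythdc1 and Mettl3 sets all moved by less than the spread between replicates. Families past the threshold in Dux-Het cells (1) numbered 2 with DESeq2, 4 with no filter, 0 in a fit of the 4 Dux-Het libraries alone, 3 with the replicate block, 5 with the block within genotype, and 0 to 3 with 1 library left out. In Dux-KO cells (3) they numbered 5 with no filter, 5 in the 4 Dux-KO libraries alone, 2 with DESeq2 size factors or the authors' factors, 5 with the replicate block, 6 with it within genotype, and 0 to 5 with 1 library left out. Of the mean effect (4) they numbered 7 with no filter and 7 with the block within genotype. Dux-KO against Dux-Het under DMSO (0) gave 1 with no filter. Silencing genes changed in the Dux set (16) numbered 9 to 17 with 1 library left out. With the replicate block 7 families were higher under 4OHT in the Ythdc1 set, as without it, and 4 were lower in Mettl3 KO. That 4 was 0 without WT replicate 1, where calls over all entries went from 3928 higher and 3564 lower to 210 and 141, and 3 without WT replicate 2. Nothing is read from these counts of families under 4OHT against DMSO or in Mettl3 KO, since loss of Ythdc1 and Mettl3 KO chose the families. The block within genotype was added after the data were seen. Same-numbered libraries of the Dux set correlated at 0.54 (Dux-Het) and 0.24 (Dux-KO), and those of the Mettl3 set at 0.08, in 2 pairs each, which does not establish pairing.

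Signs that turned all belonged to values short of the threshold in the main fit, which does not hold for every alternative value below. With 1 library left out, Dux-Het values ran from -0.12 to 0.036 (0.0047 in another) for ERVB7_2-LTR_MM, from -0.028 to 0.35 for ERVB7_2B-LTR_MM, from -0.058 to 0.80 for ETnERV2-int and from -0.052 to 1.04 for ETnERV3-int, and the Dux-KO value of ETnERV3-int from -0.15 to 0.64. In the Ythdc1 set Gm15446 ran from -0.14 to 0.013, Zfp932 from -0.21 to 0.047 and Setdb1 from -0.039 to 0.037, or 0.0064 with scaling from genes alone. In the Mettl3 set Gm15446 ran from -0.075 to 0.52 and Pphln1 from -0.31 to 0.052. The mean effect of Zfp932 was -0.00488 with DESeq2, -0.00608 with its size factors, -0.013 with the authors' factors and -0.15 to 0.23 with 1 library left out. The cause of these changes was not tested.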
